A study of Mus musculus with 33 samples.

Results

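The comparison described here sets mouse embryonic stem cells that had spent 7 days in retinoic acid plus CHIR beside cells that had spent the same 7 days in retinoic acid alone, 3 RNA libraries against 3 of the 33 libraries in the series. Both groups are of strain 129S2/SvPas. Their stem cells had been kept on inactivated embryonic fibroblasts with LIF and were then seeded on gelatin in medium with 15% serum. The RA-7d cells received all-trans retinoic acid at 10 µM. The RA/CHIR-7d cells received the same dose together with 5 µM of CHIR, a small molecule that blocks the kinase GSK3. Since the agents were given for 10 days in all, both groups were still in them when collected, and both carry the retinoic acid, so the arms differ by label in CHIR alone. Day 4 and day 10 of both arms, untreated stem cells (mES), smooth muscle cells (SMC) and extraembryonic endoderm cells (XEN) in culture, each with 3 libraries, are used beside them. The labels call the cells of the RA arm smooth muscle-like and those of the RA/CHIR arm XEN-like. They give no clone or passage, do not state whether the feeder fibroblasts were removed, and leave unstated whether the 3 replicates were grown separately. The p-values therefore describe the spread of these libraries, which could be technical.

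Retinoic acid binds nuclear receptors and drives stem cells out of pluripotency, and depending on dose and on other signals the cells can take up mesodermal or endodermal programs. Inhibition of GSK3 stabilises beta-catenin, which joins TCF and LEF factors at Wnt target genes. Mesothelium is the sheet that lines the body cavities, it is marked by Wt1 and uroplakin genes, and in the embryo it can shed cells that become fibroblasts and smooth muscle. Extraembryonic endoderm, the lineage of XEN cells, is governed by GATA, SOX and FOXA factors. Its parietal form secretes a thick basement membrane, and its visceral form makes carriers of lipids and vitamins much as liver does later.

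Values are FPKM, fragments scaled by transcript length and library size, as deposited. Of 52631 genes, 13331 had at least 1 FPKM in at least 3 of the 6 libraries and were tested with limma on log2(FPKM + 1). Differences are RA/CHIR-7d minus RA-7d on that scale, with the model's standard error, and they understate the fold of weak genes. "Higher", "lower", "rose" and "fell" are used for genes with a Benjamini-Hochberg adjusted p under 0.05 over all genes tested and a log2 difference of at least 1 in size. By that rule 1697 genes (12.7%) were called, of which 641 (4.81% of those tested) were higher with CHIR and 1056 (7.92%) lower, and the median difference of all genes was 0.008. The libraries of the arms did not overlap in 8345 genes (62.6%), with RA/CHIR above RA in 31.1% and below it in 31.5% of all genes tested, so that absence of overlap alone sets no gene apart. Across genes, the Pearson correlation between libraries was 0.984 to 0.987 within an arm and 0.911 to 0.916 between the arms. Outside day 7, the library mES replicate 3 stood apart, with a summed FPKM of 1086371 against 675357 and 685294 in the others and 303769 on the single transcript AL626808.1, and mES values are given as the range of libraries. RA/CHIR-4d replicate 2 had a sum of 763414 with 89757 on mt-Ts1, and among the day 10 libraries RA/CHIR-10d replicate 1 had 783087 with 95422 on mt-Ts1, above the 662096 to 691234 of the others in their groups. XEN replicate 3 had 757362 against 684318 and 685291. The number of reads behind a value is unknown, and the precision rests on the spread of 3 libraries. With bulk RNA, fewer cells of a type and less of its RNA per cell cannot be told apart, and this holds for every gene below.

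The gene lists were drawn up with earlier results of these data known, so their counts are a description and not a test. On the mesothelial and mesenchymal side most called genes were lower with CHIR. Of 16 tested mesothelial and epicardial genes, 15 were lower with CHIR and 1 was higher, with a median difference of -1.92. Of 24 contractile smooth muscle genes, 15 were lower and 0 higher (median -1.22). Among 22 genes of mesenchymal matrix, 13 were lower and 1 higher (-1.21). Among 21 mesenchymal transcription factors, 11 were lower and 4 higher (-1.11), and among 13 mesenchymal surface genes 3 were lower and 2 higher (-0.57). On the endodermal side the shift was less uniform. Primitive endoderm genes had 8 of 15 higher and 1 lower (1.16), and endoderm transcription factors had 6 of 17 higher and 1 lower (0.70). Visceral endoderm genes split into 6 higher and 4 lower of 13 (0.06). Gut endoderm genes split evenly, with 4 higher and 4 lower of 10 (-0.21). Basement membrane and other parietal endoderm genes had 1 higher and 3 lower of 18, and their median was -0.00.

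**Figure D1:**
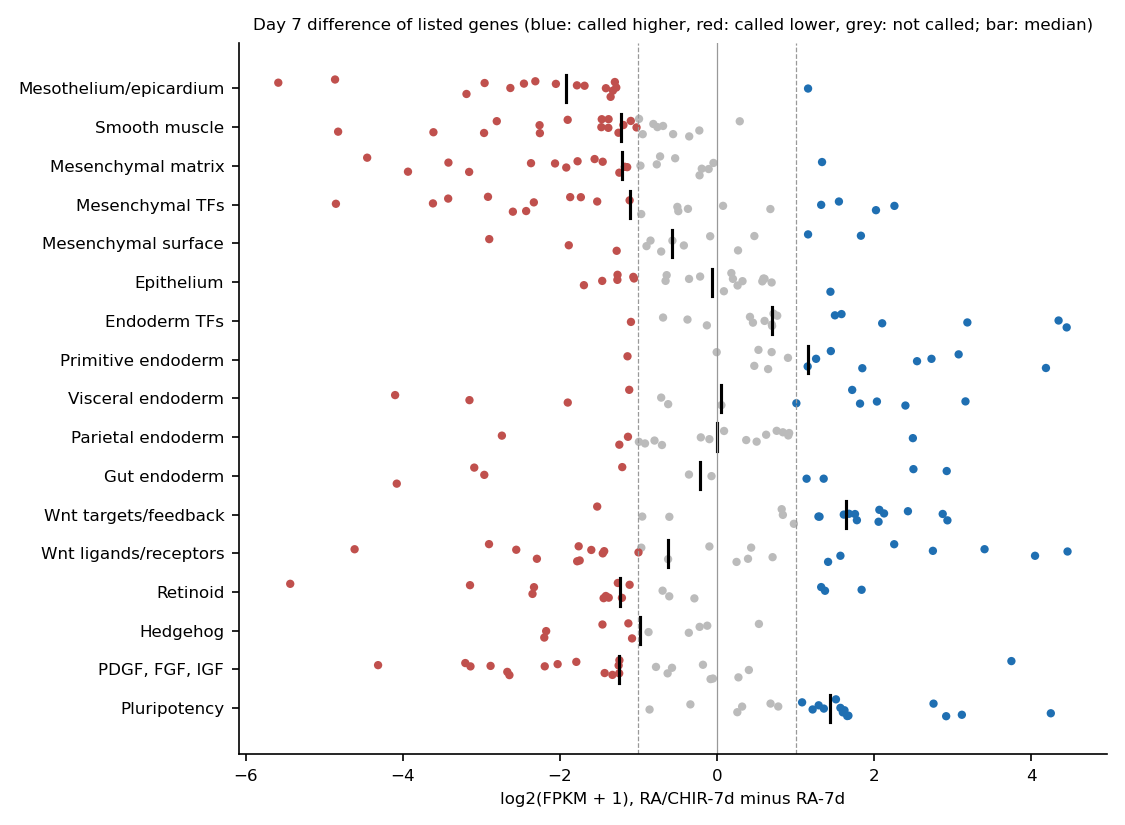
Each point is a tested gene of 1 list, placed by its difference in log2(FPKM + 1), RA/CHIR-7d minus RA-7d, on the x axis, with the list on the y axis. Blue points were called higher with CHIR, red points lower and grey points neither, black bars are list medians, and dashed lines mark a difference of 1 in size. The upper 4 lists lie mostly left of 0, with medians from -1.92 to -1.11, while the median of the parietal endoderm list is at -0.00. Lists of other lineages, among them heart and trophoblast, are not drawn.

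Wt1, the zinc finger factor that marks mesothelium (chromosome 2, 105126529 to 105173616, GRCm38), stood at 62.6, 62.2 and 58.99 FPKM in the RA libraries and at 0.263, 0.443 and 0.187 with RA/CHIR. Every RA library was far above every RA/CHIR library, and the difference was -5.59 ± 0.095 (limma adjusted p = 4.40e-08). Upk3b (chromosome 5, 136038496 to 136046487), a uroplakin of the mesothelial surface, was at 29.3, 27.02 and 28.2 FPKM with RA, while each of the 3 RA/CHIR libraries listed it at 0. No fold is given for it, since the reads behind a listed 0 are unknown. Lrrn4, a leucine-rich repeat membrane protein used as a mesothelial marker, had 9.61, 10.01 and 9.36 FPKM with RA and 0.136, 0.201 and 0.164 with CHIR (-3.19 ± 0.097). Efemp1, a fibulin-type matrix protein, went from 36.01, 41.7 and 37.2 to 3.92, 4.18 and 4.02 (-2.96 ± 0.076). For both genes the libraries of the arms lay well apart. Upk1b, the partner uroplakin of Upk3b, was at 5.63 ± 0.507 (SD, n = 3) against 0.0712 ± 0.123 FPKM, and Bnc1, a zinc finger factor of mesothelium, at 4.92 ± 0.0544 against 0.0782 ± 0.0759. Nkain4 kept a clear level with CHIR, at 10.3, 10.7 and 11.2 FPKM against 43.9, 49.9 and 49.2.

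The member on the other side was Pdpn, podoplanin, a membrane glycoprotein of mesothelium that is also made by other epithelia. It had 33.6, 34.03 and 40.2 FPKM with RA and 85.7, 81.2 and 77.3 with RA/CHIR. The arms did not overlap and the difference was 1.16 ± 0.078 (limma adjusted p = 1.72e-05). Its mean was 97.9 FPKM in XEN and 65.8 in SMC. Calb2 and Sema3d, the remaining listed members, did not reach 1 FPKM in any of the 6 libraries and were not tested. Summed over its 18 listed genes, the mesothelial list came to 251 to 263 FPKM per RA library and 97.0 to 103 per RA/CHIR library. Most of the RA/CHIR sum was Pdpn, the 1 member that was higher. Wt1, Upk1b and Bnc1 stood below 1 FPKM in each RA/CHIR library, and Upk3b at 0. With a filter of 5 FPKM, which left fewer members to test, 6 members were lower.

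Contractile genes followed. Actg2, the enteric smooth muscle actin, was at 65.1, 60.7 and 58.3 FPKM with RA and 1.59, 0.967 and 1.08 with CHIR (-4.83 ± 0.12, limma adjusted p = 1.85e-07). Acta2, the vascular smooth muscle actin, was at 601, 598 and 586 with RA and 52.5, 44.6 and 46.5 with CHIR (-3.61 ± 0.060). Tagln, which encodes the actin binding protein transgelin, was at 768, 757 and 769 with RA and 98.6, 95.96 and 96.1 with CHIR (-2.97 ± 0.029). In these genes the lowest RA library was several times the highest RA/CHIR library. Tpm2, a tropomyosin, fell from 115 ± 5.01 to 15.7 ± 1.25 FPKM. Myl9, a myosin light chain, fell from 187 ± 4.23 to 49.5 ± 6.54. Cnn2, a calponin found in many cell types, was the least changed called member, at 131, 134 and 131 FPKM against 63.95, 61.3 and 68.1 (-1.03 ± 0.047). Srf, which encodes the serum response factor that drives such genes, differed by -0.23 ± 0.11, and its coactivators Mkl1 and Mkl2 by -0.95 ± 0.075 and -0.56 ± 0.14. None of these 3 was called. The coactivator Myocd and the cytoskeletal gene Synpo2 were below the filter, with no library above 0.911 FPKM. The sum over the 26 listed genes was 3464 to 3532 FPKM with RA and 989 to 1014 with CHIR, against which the RA arm still stood far below SMC, where Acta2 alone had 11440 ± 138 FPKM.

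Serum response factor binds the CArG box, a sequence of CC and GG around a stretch of A and T. It was searched as an exact match on both strands in RefSeq promoter windows just upstream of each gene start (GRCm38.p6). Boxes with a mismatch, farther upstream or past the start were not looked for. Of the 15 contractile genes that were lower with CHIR, 12 had a promoter in the table and 2 of these (16.7%) held the box, compared with 439 (1.62%) of 27025 genes in the table. Among all genes lower with CHIR the share was 1.59%, and among all higher genes 2.66%. Of 10 Wnt target genes higher with CHIR, 2 (Lef1 and Tcf7) held it as well. The 2 windows are shown because, of the 13 windows of the 12 contractile genes, only they held the box, which is in capitals. A match is a description of letters, and no factor binding was measured. The Myl9 window is chr2:156775258-156775357, plus strand, with the box starting 161 bases before the start. The Cnn2 window is chr10:79988499-79988598, plus strand, with the box starting 56 bases before the start.
Myl9: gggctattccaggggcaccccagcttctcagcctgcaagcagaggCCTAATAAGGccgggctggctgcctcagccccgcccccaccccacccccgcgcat
Cnn2: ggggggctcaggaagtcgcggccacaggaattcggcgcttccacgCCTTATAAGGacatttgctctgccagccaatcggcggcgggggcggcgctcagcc

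Of the 22 matrix genes 13 were lower with CHIR, 1 was higher and 8 were not called. Mfap2, a microfibril protein, stood at 31.6, 33.1 and 26.7 FPKM with RA and 0.523, 0.624 and 0.176 with CHIR (-4.46 ± 0.15, limma adjusted p = 7.15e-07). Col3a1, a fibrillar collagen, was at 62.3, 61.3 and 65.98 with RA and 4.5, 2.28 and 3.09 with CHIR (-3.94 ± 0.17), and the small proteoglycan Dcn at 17.3, 19.5 and 19.5 with RA and 0.943, 0.913 and 0.686 with CHIR (-3.42 ± 0.10). The arms were well separated in each. Mfap4 was at 12.6, 15.4 and 12.2 with RA and at the uneven values 0.0899, 1.76 and 0.372 with CHIR (-3.16 ± 0.32). Col1a1, the main chain of fibrillar collagen I, had 24.2, 24.95 and 26.6 against 6.12, 5.13 and 4.69 FPKM (-2.06 ± 0.098), whereas its partner chain Col1a2 differed by -0.53 ± 0.13 and was not called. Fbln1, a fibulin of elastic fibres and basement membranes, was the 1 higher member, at 50.9, 48.3 and 51.3 FPKM with RA and 131, 129 and 125 with CHIR (1.34 ± 0.043). Bgn, Fbln5, Lox, Ogn, Postn, Tnc and Fbln2 were not called, with differences from -0.98 to -0.04. The summed list was 307 to 311 FPKM with RA and 171 to 185 with CHIR.

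Several surface and cytoskeletal genes often used as general mesenchymal markers differed by less than the minimum for a call. Vim, which encodes vimentin, stood at 589, 594 and 598 FPKM with RA and 463, 444 and 422 with CHIR (-0.42 ± 0.039). The arms did not overlap, yet the difference was below the minimum size for a call. Cdh2, N-cadherin, differed by -0.57 ± 0.081, the PDGF receptor gene Pdgfrb by -0.90 ± 0.11, and Thy1 by -0.09 ± 0.16, and none was called. Of the 13 tested surface genes, 3 were lower and 2 higher. Mmp2, a gelatinase, was lower, at 72.3, 67.8 and 71.9 against 10.5, 6.69 and 8.995 FPKM (-2.90 ± 0.14). The hyaluronan receptor Cd44 was higher with CHIR, at 10.04, 9.65 and 9.75 FPKM against 2.06, 2.19 and 1.87 (1.83 ± 0.088). Cd44 and Mmp2 thus lay on opposite sides, each with the 3 libraries of an arm close together.

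**Figure D2:**
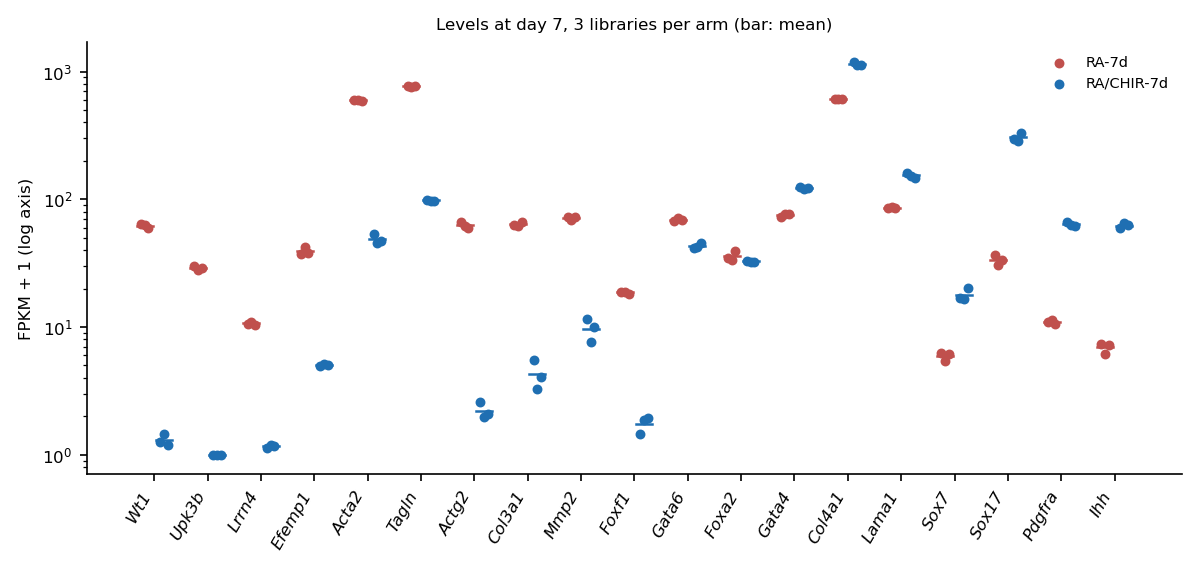
Points are single libraries at day 7 (red RA-7d, blue RA/CHIR-7d, 3 each), bars are means, and the y axis is FPKM + 1 on a log scale for 19 genes ordered from mesothelial and contractile genes on the left to endodermal genes on the right. Wt1 is at 59.0 to 62.6 FPKM with RA and at 0.187 to 0.443 with CHIR, the Foxa2 points lie close together, and Sox17 is at 286 to 329 with CHIR and 29.4 to 35.5 with RA.

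Among mesenchymal transcription factors the arms differed in which genes they used. Nr2f1, an orphan nuclear receptor, was at 37.5, 41.5 and 41.9 FPKM with RA and 0.256, 0.7302 and 0.333 with CHIR (-4.85 ± 0.13, limma adjusted p = 3.24e-07). Foxc2, a forkhead factor of mesoderm, was at 15.3, 16 and 17.01 with RA and 0.3701, 0.0751 and 0.829 with CHIR (-3.62 ± 0.19). Hic1, a repressor marked in mesenchymal progenitors, was at 11.7, 12.1 and 11.8 with RA and 0.903, 0.869 and 0.386 with CHIR (-2.92 ± 0.14). All RA libraries exceeded all RA/CHIR libraries in these genes. Foxf1 and Foxf2 encode closely related forkhead factors of gut mesenchyme and went opposite ways. Foxf1 was at 17.7, 17.97 and 17.2 FPKM with RA and 0.443, 0.878 and 0.933 with CHIR (-3.42 ± 0.13). Foxf2 was at 2.95, 4.58 and 3.78 with RA and 21.5, 22.7 and 20.8 with CHIR (2.26 ± 0.13). The same was found for the odd-skipped factors, with Osr1 at 3.95, 5.28 and 3.23 against 0.419, 0.614 and 0.178 and Osr2 at 0.839, 1.82 and 2.14 against 9.34, 9.82 and 8.84 (-1.87 ± 0.19 and 2.03 ± 0.20). The EMT factors were split too. Snai1 was higher with CHIR, at 66.4, 66.2 and 64.4 FPKM against 28.2, 24.7 and 24 (1.33 ± 0.066), Snai2 was lower (-1.53 ± 0.12), and Twist1, at 23.5, 23.4 and 24.2 against 14.7, 13.5 and 15.2, was not called (0.68 ± 0.065). Prrx1, a homeobox factor of limb and head mesenchyme, rose from under 0.3 FPKM in each RA library to 2.44, 2.65 and 3.11.

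**Figure D3:**
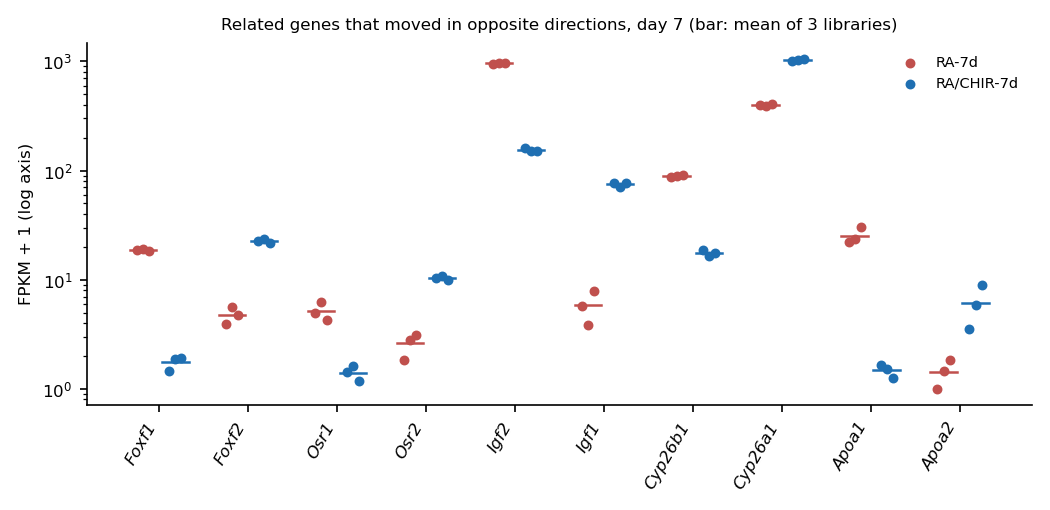
Pairs of related genes at day 7 are plotted as FPKM + 1 on a log axis, with 1 point for each library and bars for means (red RA-7d, blue RA/CHIR-7d). In each of the 5 pairs 1 gene was lower and the other higher with CHIR, with no overlap between the arms, as for Foxf1 (17.6 ± 0.379 against 0.752 ± 0.269) and Foxf2 (3.77 ± 0.817 against 21.7 ± 0.971).

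The pairs in that plot were picked after their values were seen. The pairs other than the forkhead and odd-skipped ones are given with their pathways.

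Of 20 tested epithelial genes 6 were lower, 1 was higher and 13 were not called (median -0.06). The summed list was 2177 to 2244 FPKM with RA and 1469 to 1522 with CHIR. Cdh1, E-cadherin, was at 34.98, 33.9 and 34.8 FPKM with RA and 41.7, 38.9 and 37.6 with CHIR, a difference of 0.18 ± 0.054 that was not called. The 4 keratins among the lower members were Krt7, Krt8, Krt18 and Krt19, which form filaments of simple epithelia. Krt7 was at 16.9, 9.78 and 17.03 with RA and 3.46, 2.82 and 5.02 with CHIR (-1.70 ± 0.24). Krt19 was at 466, 474 and 499 with RA and 177, 177 and 166 with CHIR (-1.46 ± 0.042), Krt8 at 495 ± 13.2 against 236 ± 4.05 and Krt18 at 578 ± 8.48 against 277 ± 3.25. The desmosomal gene Dsp and the tight junction gene Cldn4 were lower as well (-1.27 ± 0.068 and -1.27 ± 0.068). Epcam, an adhesion molecule of epithelia and of stem cells, was the higher member, at 49.9, 55.5 and 51.6 FPKM against 16.9, 19.2 and 19.8 (1.45 ± 0.074). In the 3 mES libraries it was at 39.8 to 45.6.

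Several factors of endoderm, Foxa2, Gata6 and Gata4 among them, differed between the arms at day 7 by less than the minimum for a call. Foxa2, a forkhead pioneer factor of endoderm (chromosome 2, 148042877 to 148046969), was at 33.5, 32.6 and 38.4 FPKM with RA and 31.9, 31.5 and 31.6 with CHIR. The ranges touched closely without overlapping, and the difference was -0.13 ± 0.068 (limma adjusted p = 0.148). Gata6, a zinc finger factor at the head of the primitive endoderm program, was at 66.9, 70.5 and 68 with RA and 40.5, 41.4 and 44.6 with CHIR, and its relative Gata4 at 71.4, 76.2 and 76.2 with RA and 123, 119.9 and 123 with CHIR. The arms did not overlap in either gene, but the differences, -0.69 ± 0.051 and 0.70 ± 0.042, had opposite signs and neither reached the size of a call. Hnf4a, a nuclear receptor of visceral endoderm and liver, was low in both arms, at 1.94, 3.38 and 1.69 with RA and 3.74, 4.32 and 5.77 with CHIR (0.77 ± 0.22). Foxa1, Foxa3 and Hhex were also not called, with differences of 0.46, 0.42 and 0.61.

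Other members of the endoderm factor list were clearly higher with CHIR, and their division from those above follows the calls. Sox17, an HMG-box factor of endoderm (chromosome 1, 4490931 to 4497354), was at 35.5, 29.4 and 32.5 FPKM with RA and 297, 286 and 329 with CHIR (3.19 ± 0.079, limma adjusted p = 2.14e-07). Its relative Sox7 was at 5.23, 4.44 and 5.19 with RA and 15.99, 15.5 and 19.2 with CHIR (1.59 ± 0.11). The arms were separated by wide gaps in both genes. Cited1, a coactivator, rose from 13.5 ± 1.58 to 293 ± 5.51 FPKM, and Foxq1, a forkhead factor, from 27.5 ± 0.564 to 79.7 ± 2.67. Pitx1, a homeobox factor, was at 7.6, 6.89 and 8.06 with RA and 179, 189 and 189 with CHIR (4.45 ± 0.064). Summed over the list, its members came to 313 to 323 FPKM with RA and 1131 to 1195 with CHIR. Most of the RA/CHIR sum was Sox17, Cited1 and Pitx1, so it does not stand for a rise of the uncalled factors above. Eomes, Gsc and Mixl1, factors of the primitive streak and early definitive endoderm, were among the 7 listed genes below the filter, none of which exceeded 1.293 FPKM.

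Of the endodermal lists, all drawn up with earlier results of these data known, that of primitive endoderm had the most members higher. S100g, a vitamin D-dependent calcium binding protein (X chromosome, 162961992 to 162964599), was at 70.5, 72.4 and 66.6 FPKM with RA and 1279, 1326 and 1270 with CHIR (4.19 ± 0.040, limma adjusted p = 4.50e-09). Runx1, a factor best known from blood, was at 4.29, 2.904 and 2.22 with RA and 30.1, 34.1 and 35.6 with CHIR (3.08 ± 0.18). Aqp8, a water channel, was at 22.7, 18.1 and 25.1 with RA and 151, 150.4 and 149.7 with CHIR (2.73 ± 0.11). Pdgfra, the receptor that marks primitive endoderm in the blastocyst, was at 10.0, 10.3 and 9.49 with RA and 65.2, 62.1 and 61.2 with CHIR (2.55 ± 0.056). In each of these the RA/CHIR libraries lay far above the RA libraries. Pdgfra is also a receptor of mesenchyme. Fgfr4, an FGF receptor of this lineage, rose from 3.19 ± 0.321 to 14.2 ± 2.01 FPKM. Dab2, an endocytic adaptor of primitive endoderm, was the lower member, at 70.7, 70.6 and 64.4 with RA and 30.8, 30.5 and 30.3 with CHIR (-1.14 ± 0.052). Its endocytic partners Cubn and Lrp2 were not called (0.70 ± 0.069 and 0.53 ± 0.13). Between XEN and SMC 14 genes of this list were tested, with 9 higher in XEN and 0 in SMC. Aqp8 and S100g were among the 9, but Runx1 and Pdgfra were not called there (0.20 ± 0.079 and 0.51 ± 0.064). The XEN mean of S100g was 41.2 FPKM, below its means of 69.8 in RA-7d and 1291 in RA/CHIR-7d.

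Genes of mature visceral endoderm went both ways. Ihh, a hedgehog ligand, was at 6.41, 5.204 and 6.28 FPKM with RA and 58.3, 64.1 and 61.5 with CHIR (3.17 ± 0.085, limma adjusted p = 2.89e-07), and Bmp2, a BMP ligand, at 1.87, 2.401 and 2.38 with RA and 9.43, 10.4 and 11.3 with CHIR (1.82 ± 0.11). Apoe, a lipid carrier, was higher at 682 ± 40.04 against 206 ± 16.7 FPKM. Both ligands and Apoe had every RA/CHIR library above every RA library. The plasma carriers Apoa1 and Ttr were on the other side. Apoa1, the main protein of HDL, was at 20.99, 22.6 and 29.5 with RA and 0.646, 0.5202 and 0.2504 with CHIR (-4.10 ± 0.16), and Ttr, the thyroxine carrier, at 19.5, 20.97 and 22.9 with RA and 1.54, 1.87 and 1.098 with CHIR (-3.15 ± 0.13). Apoa2, the second HDL protein, was low and uneven but higher with CHIR, at 2.54, 4.8 and 7.85 against 0, 0.446 and 0.817 (2.04 ± 0.36). Afp, the classic visceral marker, was below the filter at 0.463, 1.08 and 0.521 with RA and 0, 0.0525 and 0.493 with CHIR FPKM, and 9 further listed genes, among them Apob, Trf and Cer1, were below it too.

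Basement membrane genes were abundant in both arms. Col4a1, a chain of collagen IV, was at 609.7, 613 and 607 FPKM with RA and 1185, 1125 and 1117 with CHIR (0.90 ± 0.031). Lama1, a laminin chain of embryonic basement membrane, was at 85.1, 85.9 and 83.8 with RA and 160.4, 152 and 146 with CHIR (0.84 ± 0.044). The arms did not overlap, but neither gene nor Col4a2 (0.76 ± 0.040), Lamc1 (0.09 ± 0.033) or Sparc (0.51 ± 0.029) was called. Plat, the tissue plasminogen activator of parietal endoderm, was lower with CHIR, at 18.7, 16.6 and 17.4 FPKM against 127, 122 and 119.6 (-2.74 ± 0.057), as was the activin antagonist Fst, at 13.95, 15.9 and 13.5 against 36.2, 36.5 and 33.9 (-1.24 ± 0.074). The protease gene Prss12 was higher, at 9.498, 9.64 and 8.66 against 0.832, 0.5295 and 1.15 (2.50 ± 0.14). Summed over the 18 genes, the list was at 4243 to 4326 FPKM with RA and 5295 to 5398 with CHIR.

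Of 10 tested gut endoderm genes 4 were lower (Sst, Pga5, Gkn2 and Onecut2) and 4 higher (Cdx1, Sox21, Cxcr4 and Shh). Sst, the peptide hormone somatostatin of stomach and pancreas, was at 15.9, 19.8 and 18.1 FPKM with RA and 0, 0 and 0.387 with CHIR (-4.08 ± 0.16), the pepsinogen gene Pga5 at 44.1, 40.4 and 43.99 with RA and 3.99, 3.48 and 5.06 with CHIR (-3.09 ± 0.12), and Gkn2, a gastric mucosal protein, at 7.65, 6.42 and 9.63 with RA and 0.198, 0.198 and 0 with CHIR (-2.96 ± 0.16). All 3 were far lower in each RA/CHIR library than in any RA library. Sox21, an HMG-box factor, was at 1.102, 0.851 and 1.002 with RA and 9.13, 10.6 and 11.1 with CHIR (2.50 ± 0.11), and the chemokine receptor gene Cxcr4 differed by 1.36 ± 0.15. Cdx1, a caudal homeobox factor of the hindgut, was at 0, 0 and 0.112 with RA and 6.398, 7.12 and 7.12 with CHIR (2.93 ± 0.11), and its relative Cdx2, listed with visceral endoderm, at 0.747, 0.9604 and 0.398 with RA and 7.02, 8.54 and 8.199 with CHIR (2.40 ± 0.15). Shh was higher too, at 5.16, 6.4 and 8.11 against 2.21, 2.33 and 2.62 (1.14 ± 0.15), and without RA/CHIR-7d replicate 3 its difference was 0.997, just short of the minimum.

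The gap on the mesothelial side widened after day 4, and several endodermal genes changed their order between the arms. The difference at day 7 minus the difference at day 4 was tested as an interaction over 12 libraries and 14111 genes. By the same call rule the difference changed in 1062 genes (7.53%), upward in 428 (3.03%) and downward in 634 (4.49%). Without RA/CHIR-4d replicate 2 these counts were 436 and 637. Genes are said to move upward or downward by this difference, and a change in either arm can move it. Dab2 moved upward while its mean went from 164 to 68.5 FPKM with RA and from 36.1 to 30.5 with RA/CHIR. For S100g the means went from 176 to 69.8 with RA and from 221 to 1291 with RA/CHIR. Of 16 mesothelial genes 10 moved downward and 2 upward, of 24 contractile genes 9 downward and 0 upward, and of 22 matrix genes 14 downward and 0 upward. Primitive endoderm genes moved upward in 11 of 15 cases and downward in 0, parietal endoderm genes in 9 of 18 and 0, and endoderm factors in 7 of 18 and 0. The 23 tested mesenchymal transcription factors, in contrast, had 4 upward and 3 downward, with a median of 0.09.

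Acta2 was at 90.03 ± 1.75 FPKM on day 4 with RA and 90.3 ± 4.87 with RA/CHIR, and the interaction was as large as the difference at day 7 (-3.62 ± 0.079, limma adjusted p = 1.67e-10). Upk3b was at 0.467 ± 0.174 and 0.173 ± 0.129 on day 4, and Hic1 at 0.865 ± 0.181 and 1.34 ± 0.494 (-3.23 ± 0.24). The RA arm thus gained these transcripts between days 4 and 7, while the RA/CHIR means were lower on day 7 than on day 4. Wt1 had parted earlier, at 13.1 ± 0.719 against 0.587 ± 0.118, and parted further (-2.43 ± 0.13). Foxf1 was already far apart on day 4, with 26.6 ± 1.41 against 0.876 ± 0.111, and its interaction was not called (0.46 ± 0.15). Foxc2 was likewise at 16.4 ± 1.68 against 0.331 ± 0.0429 (0.09 ± 0.23).

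On the endodermal side several abundant genes passed from one order to the other. Lama1 was at 384 ± 12.2 FPKM with RA and 136 ± 0.8 with RA/CHIR on day 4. On day 7 the means were 84.9 and 153 (2.33 ± 0.052, limma adjusted p = 1.67e-10), and by day 10 it was at 16.5 ± 1.14 against 160.1 ± 5.35. Col4a1 went from 1447 ± 37.3 to 609.7 ± 3.102 and 278 ± 10.03 over days 4, 7 and 10 with RA, and from 710.3 ± 15.1 to 1142 ± 37.2 and 1336 ± 26.9 with RA/CHIR. Gata4 was at 132 ± 2.29 against 71.7 ± 2.83 on day 4 and at 40.9 ± 1.17 against 149 ± 6.13 on day 10. Each of these genes was thus higher with RA alone on day 4 and higher with CHIR on day 10, and their small differences at day 7 lay between. Foxa2 was at 39.1 ± 2.06 against 19.99 ± 0.0628 on day 4 and 16.1 ± 0.571 against 34.6 ± 1.72 on day 10, with 1.19 ± 0.089 for the step from day 7 to day 10. Rbp4, the plasma carrier of retinol, showed the same passage, from 109 ± 0.752 against 8.48 ± 1.398 on day 4 to 45.5 ± 0.952 against 47.5 ± 5.26 on day 7 (3.60 ± 0.13). Gata6 differed from them, being higher with RA on days 4, 7 and 10 by group means, with 65.9 ± 2.54 against 30.9 ± 0.918 on the last.

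**Figure D4:**
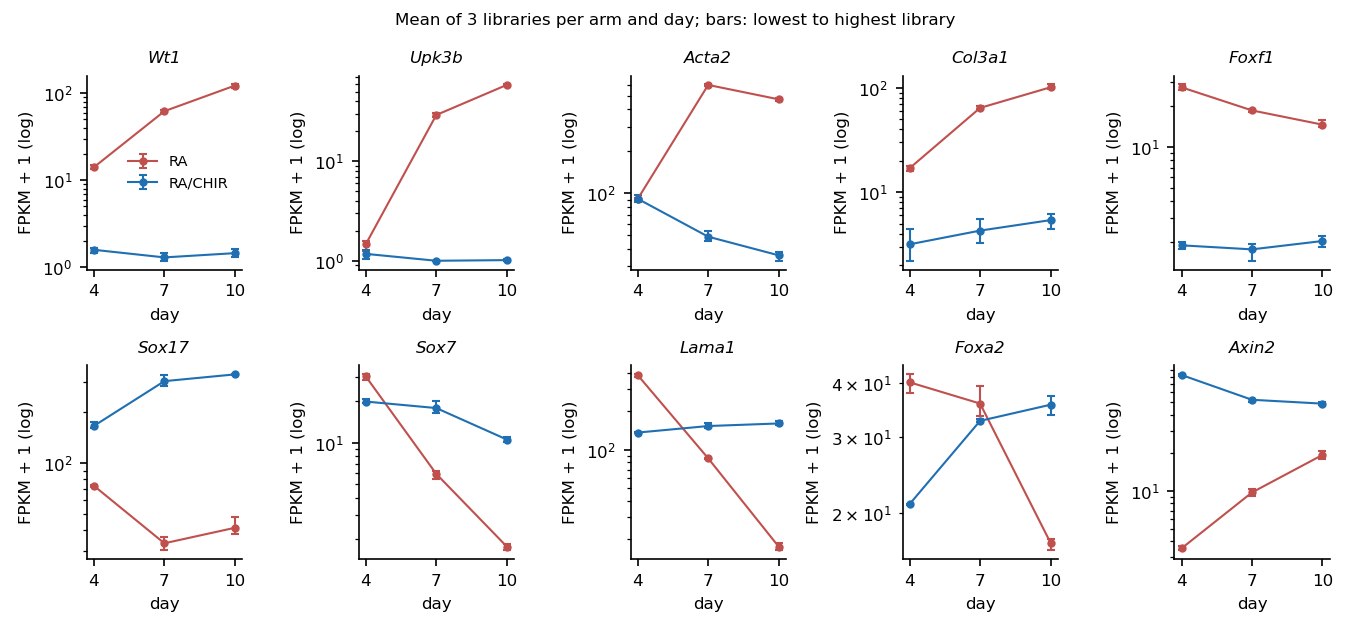
Group means of 3 libraries on days 4, 7 and 10 are joined by lines for the RA arm (red) and the RA/CHIR arm (blue), with bars from the lowest to the highest library and FPKM + 1 on a log y axis. Upk3b and Acta2 start together on day 4 and part by day 7. Lama1 and Foxa2 cross, with Lama1 at 384 ± 12.2 against 136 ± 0.8 on day 4 and 16.5 ± 1.14 against 160.1 ± 5.35 on day 10.

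From day 7 to day 10 the difference between the arms changed less widely: 262 genes (1.84%) moved upward and 233 (1.64%) downward of 14205 tested, and without RA/CHIR-10d replicate 1 these were 258 and 236. Pdgfra was at 5.16 ± 0.593 against 74.1 ± 2.202 FPKM on day 10 (1.07 ± 0.097, and 0.98 without RA-10d replicate 3, below the minimum). S100g was at 39.02 ± 7.19 against 2553 ± 49.3 (1.82 ± 0.13). Of the 15 primitive endoderm genes 8 moved upward again and 0 downward, and of 18 parietal genes 6 and 0. Of 17 mesothelial genes 5 moved downward and 0 upward. In the 24 contractile genes 0 moved upward and 1 downward.

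Targets and feedback genes of the Wnt pathway were mostly higher with CHIR. Of 18 tested, 12 were higher and 1 lower (median 1.65). Axin2, a feedback inhibitor of the pathway, was at 9.28, 8.09 and 8.85 FPKM with RA and 52.1, 52.6 and 49.7 with CHIR (2.43 ± 0.066, limma adjusted p = 2.94e-07). Sp5, a zinc finger target gene, was at 2.08, 3.99 and 3.63 with RA and 28.7, 33.9 and 29.7 with CHIR (2.94 ± 0.18). Apcdd1, a membrane-bound inhibitor, was at 3.07, 2.34 and 2.72 with RA and 27.5, 26 and 24.9 with CHIR (2.88 ± 0.096). Every RA/CHIR library was above every RA library in these genes. Axin2 had been at 2.52 ± 0.133 against 81.4 ± 1.54 on day 4, so the gap narrowed (-2.12 ± 0.080). Its mean went up with RA, to 8.74, and down with RA/CHIR, to 51.5. In the list 6 of 19 genes moved downward and 1 upward between day 4 and day 7. Myc, which is a Wnt target in other tissues, was the lower member at day 7, at 3.52, 4.296 and 2.76 against 11.3, 11.99 and 12.4 (-1.53 ± 0.13).

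TCF and LEF factors bind CTTTGAA or CTTTGAT, here searched on both strands in the same promoter windows. Of the 12 higher targets 10 had a promoter in the table and 2 (20%) held a match, against 2333 (8.63%) of 27025 genes, 7.76% of all higher genes and 6.37% of all lower genes. The share among all higher genes was thus below that of the whole table. Sp5 and Sp8 are the 2 targets with a match. Dkk1 was added after its values were seen, as a secreted inhibitor with a match. Motif letters are in capitals, and the match in Sp8 reads on the strand opposite to the gene. Windows are chr2:70474774-70474870 (Sp5, plus strand, motif starting 104 bases before the start), chr12:118847137-118847232 (Sp8, plus strand, 51 bases) and chr19:30549562-30549658 (Dkk1, minus strand, 117 bases), from RefSeq on GRCm38.p6. Distances are from the RefSeq starts. In GENCODE M21 Dkk1 spans 30545863 to 30549665, so by that annotation its window lies inside the gene.
Sp5: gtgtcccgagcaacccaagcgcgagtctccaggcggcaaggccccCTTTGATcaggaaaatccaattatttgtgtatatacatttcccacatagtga
Sp8: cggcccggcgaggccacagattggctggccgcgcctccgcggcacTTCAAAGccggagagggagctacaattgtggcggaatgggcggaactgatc
Dkk1: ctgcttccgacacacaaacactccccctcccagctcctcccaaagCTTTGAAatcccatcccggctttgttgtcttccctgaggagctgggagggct

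Wnt ligands, receptors and secreted inhibitors divided into an RA set and a CHIR set, with 7 of 25 higher and 11 lower. Secreted inhibitors differed by kind. Notum, which removes the lipid from Wnt proteins, was at 4.71, 4.04 and 4.49 FPKM with RA and 126, 116 and 114 with CHIR (4.47 ± 0.071). Dkk1, which blocks the LRP coreceptors, was at 1.28, 1.82 and 1.29 with RA and 25.02, 25.4 and 24.7 with CHIR (3.41 ± 0.11). Sfrp1, which binds Wnt proteins, was at 78.2, 77.5 and 75.4 with RA and 2.15, 2.09 and 2.31 with CHIR (-4.62 ± 0.061), and its relative Sfrp5 was also lower (-2.56 ± 0.17). Wif1, another Wnt-binding inhibitor, was higher with CHIR, Dkk3 and Frzb were lower, and Sfrp2 and Dkk2 were not called. Frizzled receptors followed a like division. Fzd1, Fzd2 and Fzd7 were lower with CHIR, at 2.16 ± 0.235, 7.595 ± 0.219 and 16.6 ± 1.11 against 14.5 ± 0.558, 28.2 ± 0.559 and 47.04 ± 0.837 FPKM, and Fzd10 was higher, at 12.4, 11.5 and 12.03 against 2.09, 1.92 and 1.22 (2.26 ± 0.14). Of the ligands, Wnt4, which is made by embryonic mesothelium and gonad, was at 21.4, 20.96 and 22.7 with RA and 2.02, 2.12 and 1.94 with CHIR (-2.90 ± 0.077), whereas Wnt2 was at 0.5398, 0.288 and 0.246 with RA and 8.79, 8.03 and 7.52 with CHIR (2.75 ± 0.13).

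Both arms received the same dose of retinoic acid, yet 10 of 16 retinoid genes were lower with CHIR and 3 higher (median -1.24). Tgm2, a transglutaminase induced by retinoic acid in many cells, was at 91.5, 85.4 and 88.1 FPKM with RA and 0.906, 1.15 and 1.14 with CHIR (-5.44 ± 0.076, limma adjusted p = 1.94e-08). Untreated mES libraries already held Tgm2 at 46.9 to 78.2 FPKM, so the gap at day 7 is not by itself a gap in induction. Rarb, a retinoic acid receptor and a direct target of the pathway, was at 48.3, 48.8 and 48.1 with RA and 15.3, 17.8 and 19.7 with CHIR (-1.42 ± 0.087). Aldh1a2, the enzyme that makes retinoic acid in mesothelium and mesoderm, was at 28.5, 28.5 and 29.8 with RA and 1.98, 2.804 and 2.42 with CHIR (-3.15 ± 0.10). These lay on the RA side without overlap. The enzymes that degrade retinoic acid were split. Cyp26b1 was at 87.2, 88.5 and 89.3 with RA and 17.7, 15.3 and 16.6 with CHIR (-2.35 ± 0.059), and Cyp26a1 at 396, 393 and 403 with RA and 1010, 1036 and 1051 with CHIR (1.38 ± 0.029). Stra6, the receptor that takes up retinol from Rbp4, was higher with CHIR, at 155, 154 and 141 against 60.6, 60.5 and 56.6 (1.33 ± 0.052).

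The hedgehog ligands Ihh and Shh were higher with CHIR, as given above, whereas the response genes Gli1 and Ptch1 were lower. Of the 10 other tested genes of the pathway 5 were lower and 0 higher (median -0.98). Gli1, the transcription factor that reports pathway activity, was at 9.25, 9.14 and 8.53 FPKM with RA and 3.23, 2.16 and 2.57 with CHIR (-1.46 ± 0.12, limma adjusted p = 5.49e-05), and the receptor and target gene Ptch1 at 14.2, 13.9 and 14 with RA and 7.28, 5.46 and 5.08 with CHIR (-1.13 ± 0.12). The ligand coreceptors were lower as well, with Gas1 at 117, 117 and 136 with RA and 24.9, 25.8 and 28.8 with CHIR (-2.18 ± 0.080) and Boc at 6.32 ± 0.309 against 0.592 ± 0.0516. In none of these 4 genes did the arms overlap. Hhip, a feedback inhibitor, and Gli2 were not called (0.53 ± 0.17 and -0.87 ± 0.11).

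The insulin-like growth factors formed another opposed pair. Igf2, the fetal growth factor, was at 946, 964 and 970.1 FPKM with RA and 159, 149.9 and 149.8 with CHIR (-2.64 ± 0.034, limma adjusted p = 1.49e-08), and Igf1 at 4.69, 2.88 and 6.88 with RA and 76.1, 69.9 and 76.7 with CHIR (3.75 ± 0.23). The IGF binding proteins, which hold the factors outside the cell, followed Igf2. Igfbp3 was at 155, 148 and 159.6 with RA and 6.01, 6.27 and 8.25 with CHIR (-4.32 ± 0.11), and Igfbp5, Igfbp6 and Igfbp7 were lower, with differences of -3.21, -3.14 and -2.88, while Igfbp2 was not called (-0.18 ± 0.058). In the whole list of PDGF, FGF and IGF genes 14 of 23 were lower and 1, Igf1, higher. Spry1 and Dusp6, feedback genes of FGF and ERK signalling, were among the lower members (-2.67 ± 0.097 and -2.19 ± 0.083). Of the BMP and TGF-beta genes 5 of 18 were lower and 1 higher. Tgfb3, a TGF-beta ligand, was at 27.99, 27.9 and 27.1 with RA and 4.06, 5.098 and 5.06 with CHIR (-2.33 ± 0.090), and the BMP antagonist Nog at 1.63, 1.91 and 3.09 with RA and 8.23, 7.75 and 7.79 with CHIR, the 1 higher member.

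Transcripts of the stem cell state were higher with CHIR. Of 20 tested pluripotency genes 14 were higher and 0 lower (median 1.44). Pou5f1 was at 35.6, 37.1 and 37.6 FPKM with RA and 283, 291 and 280 with CHIR (2.92 ± 0.039, limma adjusted p = 1.49e-08), below the 1126 to 1710 of mES. Esrrb, an orphan receptor of the naive state, was at 0.421, 0.589 and 0.233 with RA and 26.6, 25.4 and 25.4 with CHIR (4.25 ± 0.11) and at 198 to 226 in mES. Both genes had all RA/CHIR libraries above all RA libraries and below all mES libraries. Nanog, Dppa3, Prdm14 and Nr5a2 were below the filter, with no library above 1.198 FPKM. The summed list was at 197 to 216 FPKM with RA and 767 to 791 with CHIR. These transcripts were higher in the same arm as most of the called primitive endoderm genes and endoderm factors, and their part in those results was not tested. In the 20 cell cycle genes 0 were called in either direction, with differences from -0.32 to 0.50, and 0 of 13 mitochondrial transcripts were called.

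Markers of other lineages were mostly scarce. Of 16 cardiac genes 8 were tested, with 6 lower and 1 higher. Their median of -2.03 was below the -1.92 of the mesothelial list, so a fall with CHIR was not particular to that list. Myl7, an atrial myosin light chain, was at 91.3, 91.4 and 85.1 FPKM with RA and 8.101, 5.45 and 6.12 with CHIR (-3.59 ± 0.12), while Nkx2-5, Tnnt2, Myh6 and Myh7 were below the filter. Myl3, a light chain of ventricle and slow muscle, was higher with CHIR (2.53 ± 0.15). Of 12 trophoblast genes 5 were tested, with 3 lower and 0 higher (median -1.76). The lower ones included Gata2 (-2.27 ± 0.17) and Gata3 (-1.76 ± 0.11), and the defining genes Elf5 and Tpbpa were not tested. Of 12 blood genes only Lyz2 was tested, and no other found member, Ptprc and the embryonic globin genes included, exceeded 0.660 FPKM. Of 12 endothelial genes 5 were tested, with 2 higher and 1 lower (median 0.06), and the defining genes Pecam1 and Cdh5 were below the filter. Kdr, a VEGF receptor, was lower, at 0.172, 0.236 and 0.1296 with CHIR against 4.44, 4.11 and 4.92 with RA (-2.22 ± 0.12), and Esam, a junction protein shared with platelets, was higher, at 27.5, 26.4 and 26.7 against 1.09, 1.79 and 1.13 (3.59 ± 0.12). Flt1, another VEGF receptor, was higher (1.06 ± 0.11), and its difference was 0.96 without RA/CHIR-7d replicate 1. Zic1, from the neural list, was higher (2.83 ± 0.17), whereas Tubb3, neuronal tubulin, was lower (-2.67 ± 0.11) and Sox1 and Neurod1 were below the filter. The summed lists of heart, trophoblast and nerve per library were 122 to 134, 32.5 to 36.0 and 28.8 to 29.8 FPKM with RA, and 34.5 to 37.9, 12.2 to 13.7 and 24.3 to 30.4 with CHIR.

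The XEN and SMC cells share no library with the day 7 comparison and give a reference for its direction. Of 13008 genes tested between them, 4802 (36.9%) were called. Of these, 2028 (15.6%) were higher in XEN and 2774 (21.3%) in SMC, and under quantile normalization 2547 and 2287, a share of higher calls of 52.7% in place of 42.2%. Among the 11998 genes tested in both comparisons, 15.6% were higher in XEN and 18.1% in SMC. Of the 641 genes higher with CHIR, 417 were tested there, and 176 (42.2%) were higher in XEN and 121 (29%) in SMC. Of the 1056 lower genes 834 were tested, and 146 (17.5%) were higher in XEN and 459 (55%) in SMC. Each direction thus held genes of both cell types, and the shares beside it are those of all genes tested.

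**Figure D5:**
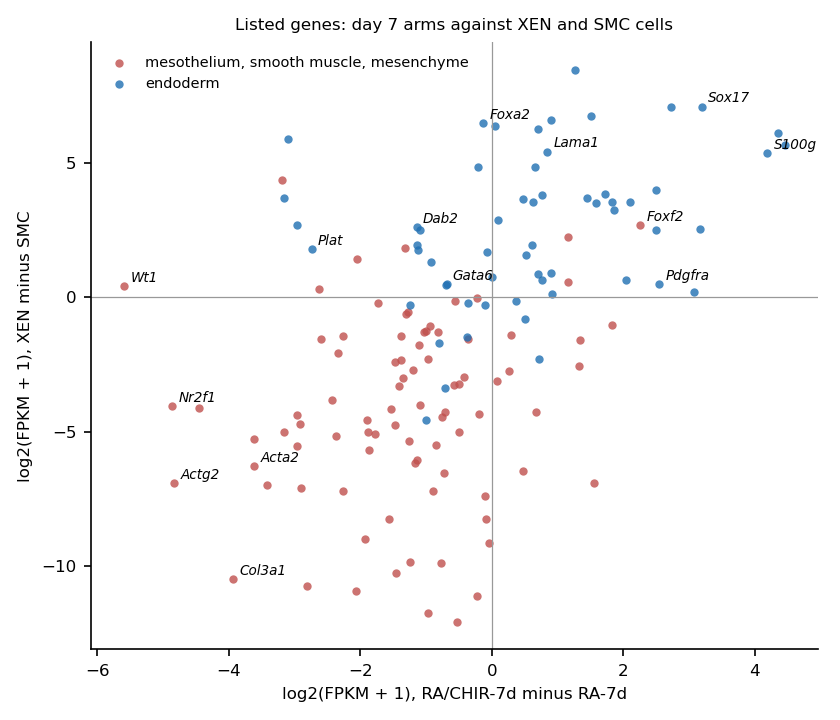
Each point is a listed gene tested in both comparisons, with the day 7 difference (RA/CHIR-7d minus RA-7d) on the x axis and XEN minus SMC on the y axis, both in log2(FPKM + 1). Red points are mesothelial, contractile and mesenchymal genes and blue points endodermal genes. Sox17 (3.19 ± 0.079 at day 7) lies at the upper right, Acta2 (-3.61 ± 0.060) at the lower left, and Plat (-2.74 ± 0.057) at the upper left.

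Named genes show where the arms did and did not follow XEN and SMC. Sox17 was at 189 ± 16.7 FPKM in XEN and 0.393 ± 0.298 in SMC, so that its order matched that of the arms, and the RA/CHIR-7d mean of 304 was above that of XEN. Actg2 was at 1412 ± 56.8 in SMC and 11.6 ± 5.16 in XEN. Mesothelial genes were split, with 3 of 11 tested higher in XEN and 4 in SMC. Wt1 was at 5.91 ± 0.2804 in XEN and 4.09 ± 0.155 in SMC, which was not called (0.44 ± 0.083), and Upk3b was below 1 FPKM in both on average. Lrrn4, lower with CHIR, was at 21.5 ± 0.659 in XEN and 0.0701 ± 0.08896 in SMC. Dab2, Plat, Ttr, Pga5 and Gkn2 were lower with CHIR although each was higher in XEN than in SMC, with 54.9 ± 1.58 against 14.9 ± 1.11 for Plat and 58.5 ± 4.38 FPKM in XEN for Pga5. Foxf2 was higher with CHIR and in XEN, at 30.96 ± 2.19 against 3.91 ± 0.387, whereas Prrx1 was higher with CHIR and in SMC, at 121 ± 4.92 against 0.00561 ± 0.00971. Pou5f1, at 285 in the RA/CHIR-7d cells, was at 0.238 ± 0.2201 in XEN, so that the cells labelled XEN-like differed from XEN in this gene by these levels. The RA-7d cells, labelled smooth muscle-like, held 68.5 FPKM of Gata6, 34.8 of Foxa2 and 495 of Krt8, beside 30.7 ± 0.643, 0 and 0.295 ± 0.339 in SMC.

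Outside the lists, the genes with the largest differences included several secreted and metabolic products. Ecm1, a secreted matrix glycoprotein, was at 2966, 2924 and 2997 FPKM with RA and 35.8, 33.4 and 38.9 with CHIR (-6.33 ± 0.053). Dlk1, an imprinted Notch-type ligand of mesenchyme, was at 439, 449.9 and 439 with RA and 31.3, 33.9 and 30.4 with CHIR (-3.76 ± 0.048), Lpl, lipoprotein lipase, at 34.2, 31.2 and 33.3 with RA and 1.45, 1.32 and 1.24 with CHIR (-3.86 ± 0.080), and the chaperone gene Clu at 1561, 1537 and 1601 with RA and 119, 118 and 111 with CHIR (-3.74 ± 0.037). Higher with CHIR were the chemokine gene Cxcl14, at 41.4, 41.9 and 40.02 against 1.21, 0.962 and 1.44 (4.26 ± 0.096), and Hopx, a homeodomain-only protein, at 75.5, 75.4 and 84 against 5.95, 6.12 and 5.21 (3.55 ± 0.077). Absence of overlap between the arms was part of the rule by which these 6 genes were picked.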

How the data were processed

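Poly(A) RNA of 33 samples in 11 groups of 3 was sequenced. Per the submitters' processing notes, the tools were Trimmomatic 0.33, HISAT2 2.0.4, Cufflinks and Cuffdiff, on GRCm38, and the authors deposited FPKM values per gene. The annotation version and the strand setting of the quantification are not given in the sources used here, so reads of overlapping or antisense genes cannot be told apart, and reads of near-identical copies may be split.

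From the deposited FPKM table, log2(FPKM + 1) was compared with limma 3.58.1 (R 4.3.3, empirical Bayes with a variance trend, Benjamini-Hochberg adjustment) over the 6 day 7 libraries. Changes of the difference between days were tested as interactions over 12 libraries, and XEN was compared with SMC over 6. The 26 gene lists held 500 entries, of which 498 were found by symbol and 382 tested at day 7. The comparison, its lists and its tests were chosen with earlier results of these data known. Genes were named as the most changed members of each list and of all genes in each direction, where the higher arm averaged 5 FPKM or more. Those taken from all genes at day 7 also had to show no overlap between the arms. Symbols of predicted genes were left out. A set of lineage genes was named as well, called or not. The gene pairs and Apoe, Bnc1, Cnn2, Col4a1, Col4a2, Dusp6, Fgfr4, Foxq1, Fzd2, Fzd7, Fzd10, Igf2, Krt8, Krt18, Myl9, Nkain4, Prrx1, Rarb, Snai2, Sp8, Spry1, Upk1b and the uncalled list members given in passing lie outside that rule and were named after their values were seen. Some listed genes count in the list totals but are not reported here by name. Of the 52631 gene identifiers, 52484 were found in GENCODE M21, which gave the coordinates. Replicate numbers did not pair the arms: the deviations of same-numbered day 7 libraries correlated at 0.014, -0.024 and 0.108. Alternatives tried were other pseudocounts, filters and scalings, a fit of all libraries, a replicate block and the removal of each library.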

Additional observations from a re-analysis of the deposited data

Results flagged for a closer look

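The difference between the arms changed from day 4 to day 7, by the limma interaction, in the genes that follow, with the change in log2(FPKM + 1) in brackets. It moved toward RA/CHIR for S100g (3.85), Rbp4 (3.6), Tdh (3.59), Snrpert (3.56), Gpx2 (2.77), Car4 (2.72), Gpr50 (2.67), Habp2 (2.63), Myh7b (2.56), Robo2 (2.51), Tcf21 (1.12), Sox17 (2.01), Sox7 (2.19), Gata4 (1.57), Hnf4a (1.11), Pdgfra (2.39), Dab2 (1.01), Ttr (1.18), Lama1 (2.33) and Pou5f1 (1.07). It moved toward RA for AC154176.1 (-5.15), Actg2 (-4.95), Upk3b (-4.54), Wnt6 (-4.42), Igfbp7 (-3.91), Ccdc73 (-3.77), Acta2 (-3.62), Nppa (-3.3), Hic1 (-3.23), Mgst1 (-3.16), Wt1 (-2.43), Tagln (-2.33), Col1a1 (-2.53), Col3a1 (-1.45), Pdgfrb (-1.48) and Axin2 (-2.12). Among the first are calcium binding S100g, the retinol carrier Rbp4 and the laminin chain Lama1, and among the second the actins Acta2 and Actg2, the collagens Col1a1 and Col3a1 and the natriuretic peptide gene Nppa. Snrpert and AC154176.1 are processed pseudogenes with listed zeros, and their values are uncertain. The value of Ccdc73 is uncertain too. Its FPKM were 5.84, 0.214 and 18.2 in the RA-7d libraries and 0.105, 0.233 and 4.68 in the RA/CHIR-7d libraries.

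From day 7 to day 10 the difference moved toward RA/CHIR for Tdgf1 (3.49), AC124413.2 (3.13), Pga5 (2.73), Chac1 (2.67), Gstm1 (2.63), Spp1 (2.62), Tdgf1-ps1 (2.47), Kcnk12 (2.44), Sst (2.4), Lama1 (2.37), Gata4 (1.14), Foxa2 (1.19), Pdgfra (1.07), Ttr (1.64) and Pou5f1 (1.17). It moved toward RA for Exosc6 (-4.75), Agtr2 (-2.66), Tmem255a (-2.44), Tnfsf13b (-2.4), S100a16 (-2.3), Gas6 (-2.25), Fcor (-2.2), Ecel1 (-2.18), Adgrg2 (-2.17), Rarres2 (-2.14) and Axin2 (-1.08). Tdgf1 and its pseudogene Tdgf1-ps1 share sequence, and both values are uncertain. Exosc6 had a mean of 6.41e-05 FPKM in RA/CHIR-10d and 1.78e-05 in mES, against 13.2, 11.8 and 14.9 in the RA-7d and 17.4, 24.3 and 30.1 in the RA/CHIR-7d libraries. Of the genes named for both steps, Lama1, Gata4, Pdgfra, Ttr and Pou5f1 moved toward RA/CHIR in both, and Axin2 toward RA in both. Only the most changed genes and a set of lineage genes are named for each step. Others were also called the same way in both, such as S100g toward RA/CHIR and Wnt6 toward RA. With groups of 3, no test for a single library far from the others was made on these genes.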

How the results depend on the processing

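Without a minimum fold, 7263 genes passed the adjusted p at day 7 (3578 higher and 3685 lower), 4808 did for the change from day 4 to day 7 (2270 and 2538) and 2920 for the change from day 7 to day 10 (1593 and 1327). With a filter of 5 FPKM, which tests fewer genes, 1121 were called at day 7, 692 of them lower, and 393 were called lower for the change from day 4. With that filter 6 mesothelial and 8 matrix genes were lower at day 7. Leaving out each library gave 1705 to 1733 calls at day 7 (643 to 668 higher, 1052 to 1076 lower), 1050 to 1087 for the change from day 4 (420 to 439 and 620 to 654), 477 to 509 for the change to day 10 (248 to 270 and 219 to 248), and 4776 to 4823 between XEN and SMC (2016 to 2036 and 2747 to 2794). The other 87 counts over all genes stayed within 1.5 times of the main value.

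With the replicate block, 1703 genes were called at day 7 (644 higher, 1059 lower), and the numbers are no pairing that the labels state.

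Among named genes, leaving out a library ended 29 calls and made 11, and the other settings ended 9 and made 28. Of the list counts, 2 moved on leaving out a library and 36 under other settings, most of them without a minimum fold or with the filter of 5 FPKM. Besides those given above, the change from day 4 of Dab2 was 0.988 without RA-4d replicate 3 and 0.968 without RA-7d replicate 3, that of Tcf21 0.991 without RA/CHIR-7d replicate 2, and Hnf4a, Ccdc73 and AC154176.1 lost that call in several such fits. The list medians kept their sign under both other scalings, except that of the mitochondrial transcripts, which went from 0.15 to -0.07. Pdgfrb was called at day 7 with a pseudocount of 0.1 (-1.40). The depth of the libraries is unknown, which limits what a listed 0 or a value under 1 FPKM can show.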
